A study of Mus musculus with 6 samples.

Results

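The genes examined here were 39 genes of the ATF4 program: ATF4 itself with its partner factors and stress effectors, enzymes that make amino acids or one-carbon units, amino acid transporters, and the cytosolic enzymes that charge tRNAs. They were chosen by name for their place in this program, with earlier results of these data known. All 39 were found among the 46517 genes counted. Their transcripts were measured by RNA sequencing in primary renal tubular epithelial cells (RTECs) from wild-type FvB mice, labelled as 4 to 6 weeks old (the study's methods give a slightly younger age). Every culture was kept without serum for 24 h; 3 cultures then received TGF-β1, a cytokine that drives kidney fibrosis, at 50 ng/ml for 24 h, and 3 control (CTL) cultures did not. The comparison asks how this program stands in tubule cells exposed to a profibrotic signal.

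ATF4 is a transcription factor whose mRNA is translated more efficiently when eIF2α is phosphorylated by kinases that sense amino acid shortage, endoplasmic reticulum stress, heme shortage or viral RNA. It binds composite elements in target genes, usually with a C/EBP family partner, and raises the supply of amino acids, their transport and the charging of tRNAs. In kidney tubule cells the program is known as part of the response to injury.

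Between 28313080 and 34183497 reads per library fell on genes, and 3 reads corresponded to 0.0878 to 0.106 CPM (counts scaled to a library total of 1000000). All values below are CPM scaled by the trimmed mean of M values (TMM). The 6 general epithelial markers were present in each culture, with summed levels of 960 to 2550 CPM in CTL and 839 to 2110 CPM in TGF-β1. Of 10 proximal tubule markers, 5 (Slc34a1, Slc5a2, Slc5a12, Slc22a6 and Slc22a8) stayed under 1 CPM in all 6 libraries, and the summed level of the 10 was 104 to 115 CPM in CTL and 43.6 to 61.8 CPM in TGF-β1. Endothelial (36.4 to 51.9 CPM in CTL, 22.8 to 35.2 CPM in TGF-β1) and leukocyte sums (6.65 to 9.33 and 4.25 to 8.15 CPM) were low. Those of thick limb and distal tubule (1.91 to 4.10 and 1.57 to 2.09 CPM) and of collecting duct (0.85 to 2.17 and 0.425 to 0.834 CPM, with Atp6v1g3 at 0 in all libraries) were lower still. Replicate 2 stood apart in both groups: it had the lowest epithelial sums (960 and 839 CPM) and the highest fibroblast sums (2570 and 3360 CPM, against 1030 to 1440 CPM in the other 4 libraries). It was also the one replicate with transcripts of 4 Y-linked genes, summing to 151 and 142 CPM against 0.061 to 0.172 CPM elsewhere, although the study's methods name male mice. Same-numbered cultures deviated together from their group means, so each result is given from the comparison of groups and, where the call differs, from the fit with the replicate number as a block. Fold changes and their standard errors are from the comparison of groups, and where a pair of adjusted p-values is given the second is from the blocked fit. In bulk RNA, fewer cells of a type and less RNA per cell cannot be told apart.

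Promoter sequences show which of these genes carry, near their start, letters that ATF4 composite elements are known for. RefSeq windows of 300 bases, from 250 before to 50 after the transcript start on GRCm38.p6, were matched for 31 of the 39 genes (34 windows). The letters TGATGNAA, searched on both strands, were present in 12 of the 34 windows (35.3%), as against 1304 of all 32851 promoter windows (3.97%). Because the genes were chosen for their place in the ATF4 program, the higher share is no independent support for that place. The palindrome GTCTAGAC, searched as an unrelated motif, was in 0 of the 34 windows and in 0.213% of all windows. A motif this rare would be absent from most sets of 34 windows, so it cannot serve as a control for the TGATGNAA share. The 200 bases before the start are shown for 6 of the genes with a match. They leave out the proline, transamination and transsulfuration genes. Phgdh, the gene with the largest change among the 39, had no match and is shown too. Capitals mark the match, written on the gene's strand from 5′ to 3′; where the match lies on the opposite strand the capitals are its reverse complement.
Chac1, chr2:119351042-119351241, plus strand, match on the opposite strand beginning 193 bases before the start: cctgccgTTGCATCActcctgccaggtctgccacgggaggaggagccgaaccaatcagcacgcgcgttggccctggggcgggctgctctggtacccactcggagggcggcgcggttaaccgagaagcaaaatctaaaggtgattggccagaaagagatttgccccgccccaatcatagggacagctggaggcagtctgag
Asns, chr6:7693210-7693409, minus strand, match on the same strand beginning 23 bases before the start: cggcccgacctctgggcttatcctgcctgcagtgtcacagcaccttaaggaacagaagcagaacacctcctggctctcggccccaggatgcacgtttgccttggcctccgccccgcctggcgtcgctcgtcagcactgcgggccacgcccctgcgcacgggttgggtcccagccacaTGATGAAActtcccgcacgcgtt
Slc7a11, chr3:50443614-50443813, minus strand, matches beginning 66 bases before the start on the same strand and 47 bases before it on the opposite strand: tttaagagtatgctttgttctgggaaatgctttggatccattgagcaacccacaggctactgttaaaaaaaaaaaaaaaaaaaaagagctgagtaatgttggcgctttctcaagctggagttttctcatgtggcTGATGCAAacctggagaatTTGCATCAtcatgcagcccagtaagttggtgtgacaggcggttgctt
Aars, chr8:111033642-111033841, plus strand, match on the opposite strand beginning 112 bases before the start: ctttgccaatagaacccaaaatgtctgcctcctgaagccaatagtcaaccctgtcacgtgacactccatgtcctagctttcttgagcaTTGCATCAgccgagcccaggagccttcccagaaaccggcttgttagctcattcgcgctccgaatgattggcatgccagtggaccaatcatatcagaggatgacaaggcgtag
Gars, chr6:55037801-55038000, plus strand, match on the opposite strand beginning 30 bases before the start: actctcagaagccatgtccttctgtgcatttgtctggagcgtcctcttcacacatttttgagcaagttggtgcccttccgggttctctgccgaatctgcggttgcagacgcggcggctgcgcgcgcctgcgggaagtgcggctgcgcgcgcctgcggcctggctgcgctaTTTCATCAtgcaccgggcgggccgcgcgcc
Tars, chr15:11399659-11399858, minus strand, match on the opposite strand beginning 15 bases before the start: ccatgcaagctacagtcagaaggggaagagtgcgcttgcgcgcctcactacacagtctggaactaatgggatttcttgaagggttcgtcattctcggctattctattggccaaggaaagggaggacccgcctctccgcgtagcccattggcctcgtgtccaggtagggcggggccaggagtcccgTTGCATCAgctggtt
Phgdh, chr3:98339970-98340169, minus strand, with no match: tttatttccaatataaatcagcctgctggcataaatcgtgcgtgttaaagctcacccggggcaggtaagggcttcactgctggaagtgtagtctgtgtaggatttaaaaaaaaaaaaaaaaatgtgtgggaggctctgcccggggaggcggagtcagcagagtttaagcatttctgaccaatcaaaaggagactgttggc
Aars had a further match on the opposite strand, beginning 9 bases after the start and so outside the bases shown. The other genes with a match were Trib3, Pycr1, Got1, Slc1a4, Iars and Yars. A match describes the letters in the window and is not evidence that ATF4 binds there.

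All 39 genes passed the filter on low counts. With TGF-β1, 4 of them rose (Atf4, Slc7a5, Slc3a2 and Slc1a4) and 1 fell (Phgdh) at an adjusted p under 0.05 in edgeR's quasi-likelihood test. Over all 15862 genes tested, 5.00% rose and 6.69% fell (11.7% in either direction), so 5 of 39 was close to the share of all genes. When counts were scaled by library size alone, the split of all genes moved from 793 higher and 1061 lower to 508 higher and 1467 lower, and that of the members to 1 and 1. In DESeq2, 8 members rose and 1 fell, beside 7.57% and 9.59% of all genes. At an unadjusted p under 0.05 the counts were 17 of 39, beside 28.6% of all genes, and 28 of 39 with the block, beside 44.0%. With the replicate block, 17 of the 39 rose and 6 fell, beside 15.1% and 19.1% of all genes. Here the rising members exceeded the background share and the falling ones did not. Because the members were chosen with earlier results of these data known, these shares are a description and not an independent test. Differences were small. The median log2 fold change of the 39 was 0.15, with 27 above zero and 12 below, while the median over all genes tested was -0.0028. Their median absolute change (0.17) was the same as that of all genes (0.17), and individual values ran from -0.78 for Phgdh to 0.48 for Trib3. The 3 TGF-β1 values lay above all 3 CTL values for 16 members (17.2% of all genes) and below them for 4 (18.0% of all genes). Within same-numbered cultures, TGF-β1 was higher in all 3 pairs for 23 members (30.4% of all genes) and lower in all 3 for 10 (32.6% of all genes).

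**Figure D1:**
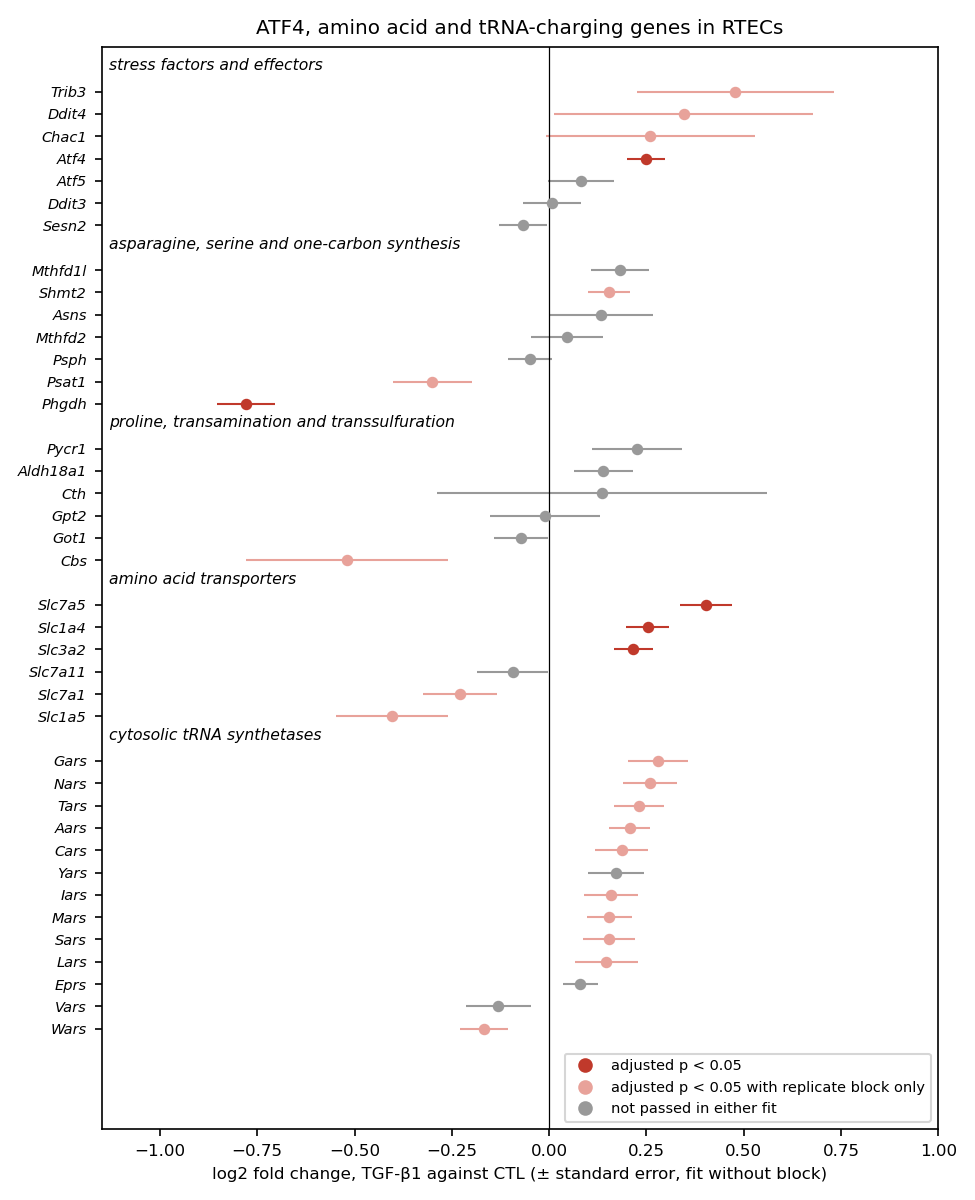
Log2 fold change of the 39 genes, TGF-β1 against CTL, by role (points, edgeR fit without the block; bars, ± standard error; 3 cultures per group). Dark red marks the 5 genes that passed without the block, light red those that passed with it only, and grey those that passed neither; Phgdh lies at -0.78, apart from the others.

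These counts depended on which cultures were included. With both replicate 1 cultures left out and no block, 0 of all genes tested passed in edgeR's quasi-likelihood test (1938 had an unadjusted p under 0.05), and with them left out the adjusted p of Phgdh was 0.232. Without both replicate 3 cultures, 95 of all genes rose and 190 fell, Phgdh being the only member called (adjusted p = 0.0413, edgeR), and without both replicate 2 cultures 1084 rose and 1290 fell. Leaving out CTL replicate 1 alone gave 109 and 186 and leaving out TGF-β1 replicate 1 alone 128 and 193; among the members Phgdh alone then passed. With replicate 2 left out of the blocked fit, 14 members rose and 6 fell, beside 14.3% and 17.0% of all genes.

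Among the stress factors and effectors, Atf4 was the only one of 7 to rise without the block, and 4 of 7 rose with it. Of all genes, 5.00% rose without the block and 15.1% with it. Atf4 (chr15:80255184-80257541) measured 274, 264 and 284 CPM in CTL replicates 1, 2 and 3 and 331, 322 and 325 CPM in the TGF-β1 replicates. The groups did not overlap. The log2 fold change was 0.25 ± 0.05 (SE, n = 3 and 3, adjusted p = 0.0286, edgeR), and it kept its call in 1 of the 6 fits made with 1 culture fewer, the one without CTL replicate 3; the adjusted p was between 0.0442 and 0.141 over the 6. Per kilobase of exon it was the highest of the 39 genes, at 116 CPM in CTL and 138 CPM in TGF-β1.

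Trib3, a pseudokinase that ATF4 induces and that in turn restrains it, measured 24.2, 17.0 and 29.8 CPM in CTL and 33.6, 24.8 and 40.4 CPM in TGF-β1. The groups overlapped, with both replicate 2 cultures low and both replicate 3 cultures high, while within each pair the TGF-β1 culture was higher. Its log2 fold change was 0.48 ± 0.25 (adjusted p = 0.277, edgeR), and with the block the same gene rose with an adjusted p of 0.000421, the pairs differing by 0.47, 0.54 and 0.44 on the log2 scale. Ddit4, an inhibitor of mTORC1, had the same layout, with 151, 102 and 204 CPM in CTL and 195, 128 and 257 CPM in TGF-β1. Its pairs differed by 0.37, 0.33 and 0.33 on the log2 scale (adjusted p = 0.55 without the block and 0.00053 with it, edgeR). Chac1, which degrades glutathione, measured 31.5, 22.4 and 42.5 CPM in CTL and 38.98, 29.5 and 46.9 CPM in TGF-β1. Again the groups overlapped and every pair was higher with TGF-β1 (log2 fold change 0.26 ± 0.27, adjusted p = 0.58 without the block and 0.0104 with it, edgeR).

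The remaining factors passed in neither fit. Ddit3, which encodes the stress factor CHOP, was at 40.1, 44.5 and 45.7 CPM in CTL and 40.9, 43.8 and 46.3 CPM in TGF-β1, with a log2 fold change of 0.01 ± 0.07 (adjusted p = 0.961, edgeR). Atf5, a factor whose translation is controlled like that of Atf4, had a log2 fold change of 0.08 ± 0.08. Sesn2, a leucine sensor that restrains mTORC1, had one of -0.07 ± 0.06.

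**Figure D2:**
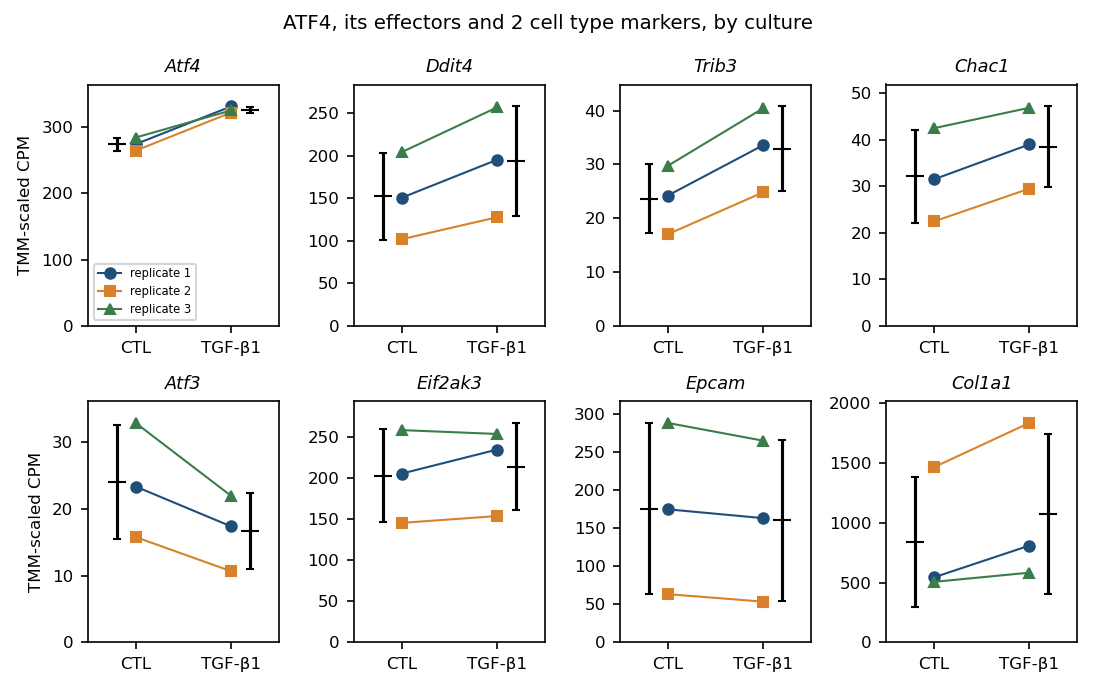
TMM-scaled CPM of 6 stress genes and of the markers Epcam and Col1a1 in each culture; lines join same-numbered cultures and black bars show the mean ± SD of each group (n = 3). Ddit4, Trib3, Chac1 and Epcam were lowest in replicate 2 and highest in replicate 3 of both groups, while Col1a1 was highest in replicate 2.

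This order of the replicates ran through many of the genes. In both groups, replicate 2 was the lowest and replicate 3 the highest for 12 of the 39 (Ddit4, Trib3, Chac1, Sesn2, Asns, Shmt2, Gpt2, Slc7a1, Iars, Lars, Mars and Sars), beside 13.8% of all genes tested. Replicate 2 was the lowest in both groups for 16 members and the highest for 5, beside 24.9% of all genes in each case. The epithelial marker Epcam followed the same order, with 175, 63.3 and 288 CPM in CTL and 163, 53.5 and 265 CPM in TGF-β1. Within each pair the epithelial sum was lower with TGF-β1 (1860, 960 and 2550 CPM in CTL against 1700, 839 and 2110 CPM) and the fibroblast sum higher (1030, 2570 and 1060 CPM against 1440, 3360 and 1080 CPM). The fibroblast markers did not move as one. Nor did the 6 epithelial markers, of which 2 lay above zero and 4 below (median log2 fold change -0.16), with 4 lower in the blocked fit. Without the block Cdh16 and Pax8 fell, by 1.50 and 0.77 on the log2 scale (adjusted p = 0.00922 and 0.00436, edgeR). Of 7 fibroblast markers tested 0 passed without the block in edgeR or DESeq2 (0 at an unadjusted p under 0.05). With it Col1a1 and Col1a2 rose and Pdgfrb and Dcn fell (log2 fold changes 0.36 ± 0.59, 0.83 ± 0.49, -0.91 ± 0.55 and -1.10 ± 0.83). The part of cell makeup in the members' levels was not tested.

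In the serine pathway the first enzyme fell while the last step did not pass. Phgdh (chr3:98313170-98339990), which diverts a glycolytic intermediate into serine synthesis, measured 166, 179 and 153 CPM in CTL and 91.6, 102 and 96.1 CPM in TGF-β1. The lowest CTL culture was well above the highest TGF-β1 culture. The level with TGF-β1 was 0.583 of that in CTL (log2 fold change -0.78 ± 0.07, adjusted p = 0.00425, edgeR), and 10.5% of all genes tested had an absolute change as large. Dropping any single culture kept this call (6 of 6 fits), at -0.83 to -0.72 on the log2 scale. Psat1, the next enzyme, measured 30.3, 32.5 and 28.5 CPM in CTL and 21.9, 27.7 and 24.6 CPM in TGF-β1, without overlap. It did not pass without the block (log2 fold change -0.30 ± 0.10, adjusted p = 0.112) and fell with it (adjusted p = 0.0103, edgeR). Psph, which releases serine from its phosphate, was at 29.4, 30.7 and 32.3 CPM in CTL and 29.1, 30.4 and 29.7 CPM in TGF-β1, and its adjusted p was 0.629 (edgeR).

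Of the mitochondrial one-carbon enzymes, 1 rose with the block. Shmt2, which splits serine into glycine and a one-carbon unit, measured 67.9, 65.6 and 71.0 CPM in CTL and 74.8, 73.4 and 79.2 CPM in TGF-β1. The groups did not overlap, and the log2 fold change of 0.15 ± 0.05 passed with the block only (adjusted p = 0.12 without it and 0.0255 with it, edgeR). Mthfd1l, which releases formate, had a log2 fold change of 0.18 ± 0.07 (adjusted p = 0.173 and 0.078, edgeR). For Mthfd2, the dehydrogenase between them, the value was 0.05 ± 0.09, and it changed sign when counts were scaled by library size alone (-0.028) and in the blocked fit without replicate 2 (-0.047). Asns, which makes asparagine and is a standard readout of ATF4, measured 142, 115 and 159 CPM in CTL and 150, 138 and 167 CPM in TGF-β1. Its groups overlapped, each pair was higher with TGF-β1, and neither fit passed (log2 fold change 0.13 ± 0.13, adjusted p = 0.564, and 0.0635 with the block, edgeR).

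Of the 6 genes of proline synthesis, transamination and transsulfuration, 0 passed without the block in edgeR or DESeq2, and 0 had an unadjusted p under 0.05. Cbs, the first enzyme of transsulfuration, was the least abundant of the 39 genes per kilobase of exon (0.323 CPM in CTL). It measured 2.93, 1.88 and 2.44 CPM in CTL and 2.15, 1.28 and 1.63 CPM in TGF-β1. These values rest on 39 to 96 reads per library. All 3 pairs were lower with TGF-β1, and Cbs fell with the block only (log2 fold change -0.52 ± 0.26, adjusted p = 0.247 without it and 0.0299 with it, edgeR); without replicate 2 the blocked adjusted p was 0.0597. Cth, the second enzyme, ranged from 4.30 to 9.08 CPM in CTL and from 4.49 to 10.8 CPM in TGF-β1, with the highest value in replicate 2 of each group. The proline enzymes Pycr1 and Aldh18a1 had log2 fold changes of 0.22 ± 0.12 and 0.14 ± 0.08, and the transaminases Gpt2 and Got1 -0.01 ± 0.14 and -0.07 ± 0.07.

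The transporters split. Both chains of the large neutral amino acid exchanger LAT1, Slc7a5 and its heavy chain Slc3a2, rose together with the serine and alanine carrier Slc1a4. Slc7a5 (chr8:121881150-121907694) measured 94.4, 104 and 102 CPM in CTL and 127, 142 and 126 CPM in TGF-β1. No TGF-β1 culture fell within the CTL range, and its log2 fold change of 0.40 ± 0.07 (adjusted p = 0.017, edgeR) passed in 4 of the 6 leave-one-culture-out fits. It was lost without CTL replicate 1 (adjusted p = 0.087) and without TGF-β1 replicate 1 (adjusted p = 0.0669).

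Slc3a2 (chr19:8706882-8723369) measured 154, 153 and 146 CPM in CTL and 177, 181 and 168 CPM in TGF-β1. The groups were separate, with a log2 fold change of 0.22 ± 0.05 (adjusted p = 0.0422, edgeR), but each of the 6 fits without a single culture lost the call (adjusted p of 0.0633 to 0.152). Slc1a4 (chr11:20302180-20332713) measured 57.9, 57.5 and 62.9 CPM in CTL and 68.8, 73.2 and 70.5 CPM in TGF-β1. These groups were separate too (log2 fold change 0.25 ± 0.05, adjusted p = 0.0363, edgeR), and the call was kept without CTL replicate 3 and lost without any other single culture (adjusted p of 0.035 to 0.161 over the 6). When counts were scaled by library size alone, Atf4, Slc3a2 and Slc1a4 did not pass (adjusted p = 0.0767, 0.101 and 0.0825, edgeR).

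The other carriers lay below zero. Slc1a5, the glutamine carrier ASCT2, measured 10.5, 9.41 and 7.58 CPM in CTL and 7.44, 6.97 and 6.34 CPM in TGF-β1. The groups did not overlap, though the lowest CTL culture was close to the highest TGF-β1 culture, and Slc1a5 fell with the block only (log2 fold change -0.40 ± 0.14, adjusted p = 0.126 without it and 0.0127 with it, edgeR). Slc7a1, the arginine and lysine carrier CAT1, measured 230, 200 and 254 CPM in CTL and 198, 183 and 202 CPM in TGF-β1. Its groups overlapped at CTL replicate 2, and it also fell with the block only (log2 fold change -0.23 ± 0.09, adjusted p = 0.174 and 0.01, edgeR). The cystine carrier Slc7a11 passed in neither fit (log2 fold change -0.09 ± 0.09, adjusted p = 0.555), although its window held a pair of TGATGNAA matches.

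**Figure D3:**
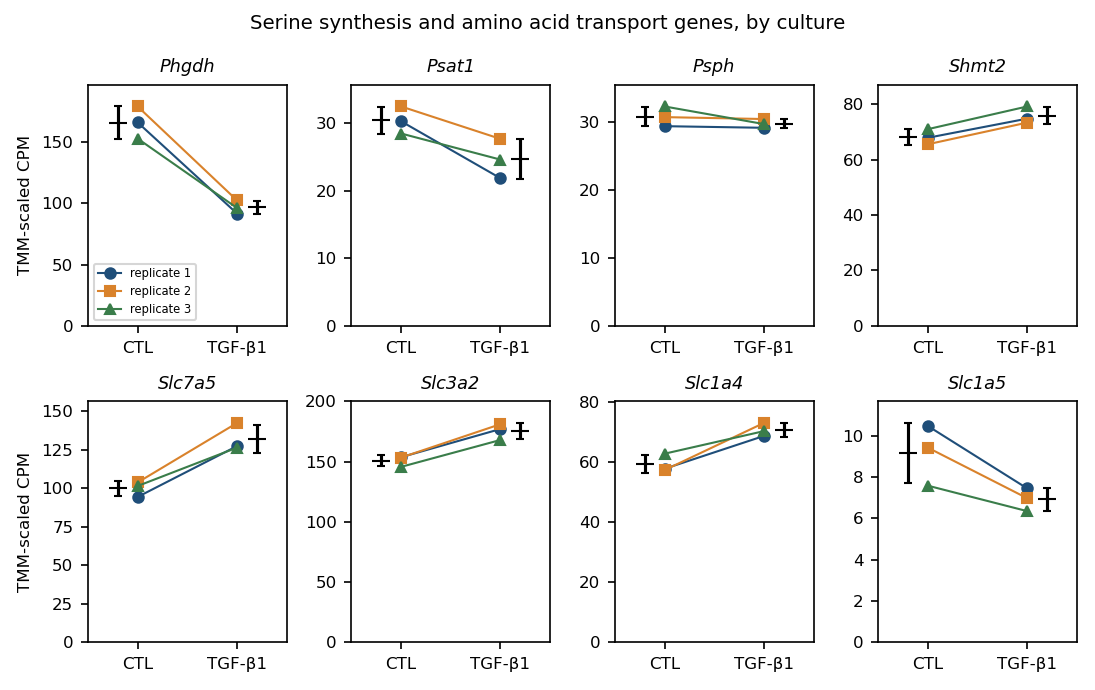
TMM-scaled CPM of 4 serine and one-carbon genes (upper row) and 4 transporter genes (lower row) in each culture; lines join same-numbered cultures and black bars show the mean ± SD (n = 3). All 3 lines fall for Phgdh, Psat1 and Slc1a5 and rise for Shmt2, Slc7a5, Slc3a2 and Slc1a4, while those of Psph stay between 29.1 and 32.3 CPM.

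Of the 13 cytosolic tRNA synthetases, 0 passed in edgeR without the block, although 7 had an unadjusted p under 0.05 and 4 passed in DESeq2 (Aars, Gars, Nars and Tars). With the block, 9 rose and 1 fell, beside 15.1% and 19.1% of all genes. The median log2 fold change of the 13 was 0.16, with 11 of 13 above zero, beside 49.3% of all genes. In all 11 every pair was higher with TGF-β1, beside 30.4% of all genes. Gars, for glycine, had the largest value, with 192, 186 and 200 CPM in CTL and 218, 259 and 226 CPM in TGF-β1. No culture overlapped, and the log2 fold change was 0.28 ± 0.08 (adjusted p = 0.0671, and 0.0131 with the block, edgeR). Nars, for asparagine, measured 336, 314 and 367 CPM in CTL and 396, 413 and 408 CPM in TGF-β1, again without overlap (log2 fold change 0.26 ± 0.07, adjusted p = 0.0635 and 0.00862, edgeR).

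Aars, for alanine, came nearest to passing without the block, at 357, 354 and 377 CPM in CTL and 411, 416 and 429 CPM in TGF-β1. The group ranges were apart by more than the spread within either (log2 fold change 0.21 ± 0.05, adjusted p = 0.0526 and 0.00827, edgeR). Tars, for threonine, measured 140, 139 and 157 CPM in CTL and 165, 178 and 169 CPM in TGF-β1 (log2 fold change 0.23 ± 0.06, adjusted p = 0.0717 and 0.0131, edgeR). Cars, Iars, Mars, Sars and Lars, for cysteine, isoleucine, methionine, serine and leucine, also rose with the block, by 0.15 to 0.19 on the log2 scale. Without replicate 2, Cars, Mars and Lars lost this call (blocked adjusted p = 0.0687, 0.0753 and 0.0556, edgeR). Yars, for tyrosine, and Eprs, the joint enzyme for glutamate and proline, did not (blocked adjusted p = 0.0528 and 0.183, edgeR).

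The exceptions were the enzymes for tryptophan and valine. Wars measured 101, 107 and 107 CPM in CTL and 88.5, 91.7 and 100 CPM in TGF-β1. All 3 TGF-β1 cultures were below the CTL cultures, and Wars fell with the block (log2 fold change -0.17 ± 0.06, adjusted p = 0.135 without it and 0.0234 with it, edgeR). Vars measured 124, 109 and 134 CPM in CTL and 115, 106 and 115 CPM in TGF-β1, which overlapped, and passed in neither fit (log2 fold change -0.13 ± 0.08, blocked adjusted p = 0.0743, edgeR), though it fell in the blocked fit without replicate 2 (adjusted p = 0.0228). Per kilobase of exon in CTL, Nars (77.8 CPM), Gars (61.8 CPM) and Sars (54.2 CPM) were the most abundant synthetases and Eprs (14.0 CPM) the least.

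**Figure D4:**
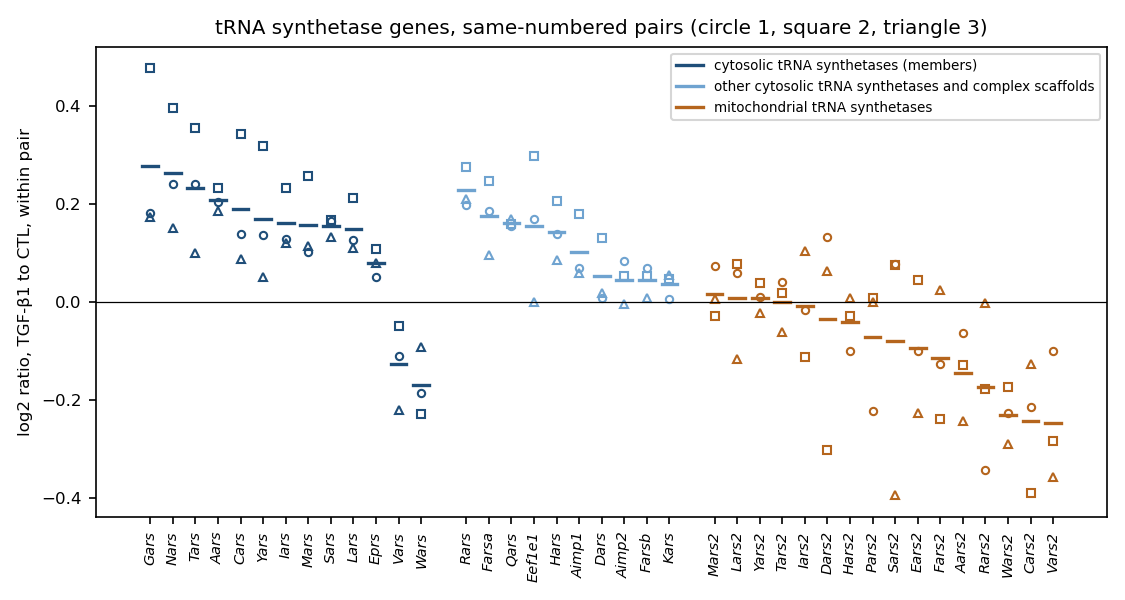
Log2 ratio of TGF-β1 to CTL within each same-numbered pair for the 13 synthetase genes of the program, 10 other cytosolic synthetase and scaffold genes and 16 mitochondrial synthetase genes. Symbols are the 3 pairs and bars the mean of the 3 log2 ratios. The bars lie above zero for 11 of the 13 and for all 10 other cytosolic genes, and mostly below zero for the mitochondrial ones.

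Enzymes of charging outside the program's 39 genes showed the same side by compartment. All 10 other cytosolic synthetase and scaffold genes had a positive log2 fold change (median 0.12), beside 49.3% of all genes. Scaled by library size alone, Dars, Farsb, Kars and Aimp2 lay below zero (-0.023, -0.030, -0.036 and -0.029). In edgeR without the block 0 passed (4 at an unadjusted p under 0.05, 1 in DESeq2). With the block 4 rose (Rars, Farsa, Qars and Hars), beside 15.1% of all genes. Rars, for arginine, had the largest, 0.23 ± 0.06 (blocked adjusted p = 0.0043, edgeR). In the blocked fit without replicate 2, 2 of the 10 rose, beside 14.3% of all genes, and Farsa and Hars lost the call (adjusted p = 0.0582 and 0.0979, edgeR). Of 16 mitochondrial synthetases, 13 lay below zero (median -0.08) and 0 passed without the block (3 at an unadjusted p under 0.05, 0 in DESeq2). With it Cars2, Vars2 and Wars2 fell by 0.23 to 0.25 on the log2 scale. These 3 of 16 were close to the 19.1% of all genes that fell. Without replicate 2 the blocked fit kept Wars2 (adjusted p = 0.0197, edgeR) and lost Cars2 and Vars2 (0.163 and 0.0541). The difference between the compartments was not tested.

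Of the genes that act before ATF4, the kinases did not pass and parts of eIF2 and its phosphatase rose. In this list of 13 genes, 2 rose without the block and 4 with it, beside 5.00% and 15.1% of all genes. The 4 eIF2α kinases Eif2ak1, Eif2ak2, Eif2ak3 and Eif2ak4 had log2 fold changes of 0.03, -0.09, 0.08 and -0.01, and none passed in either edgeR fit (the lowest adjusted p was 0.552 without the block and 0.181 with it). Ppp1r15a, the ATF4-induced phosphatase subunit that reverses eIF2α phosphorylation, measured 61.8, 60.7 and 60.6 CPM in CTL and 73.9, 82.0 and 71.0 CPM in TGF-β1. It rose by 0.31 ± 0.06 on the log2 scale (adjusted p = 0.0309, edgeR), and Eif2s1, which encodes eIF2α itself, rose by 0.24 ± 0.05 (adjusted p = 0.03, edgeR). Leaving out any CTL culture or TGF-β1 replicate 1 lost the call of Ppp1r15a (adjusted p up to 0.124), and leaving out any single culture lost that of Eif2s1 (adjusted p of 0.0662 to 0.119). With the block, Eif2s2 and Eif2b3 of the same 13-gene list rose as well, by 0.19 each, and Eif2b3 lost this call without replicate 2 (adjusted p = 0.151, edgeR). Scaled by library size alone, Eif2s1 did not pass (adjusted p = 0.0704, edgeR). Ppp1r15b and the exchange factor genes Eif2b1, Eif2b2, Eif2b4 and Eif2b5 passed in neither fit, with log2 fold changes of -0.11 to 0.11, although Eif2b5 fell in the blocked fit without replicate 2 (adjusted p = 0.0471, edgeR).

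Other partners and reported targets of ATF4 went both ways. Of 20, 2 rose and 3 fell without the block, and 3 rose and 7 fell with it. Over all genes, 5.00% rose and 6.69% fell without the block, and 15.1% and 19.1% with it. Fgf21, a hormone induced by mitochondrial and amino acid stress, rose from 0.946, 1.00 and 1.82 CPM to 5.04, 10.1 and 5.31 CPM (log2 fold change 2.44 ± 0.40, adjusted p = 0.0173, edgeR); the call was lost without replicate 1 of either group or CTL replicate 2 (adjusted p up to 0.0895). Stc2, a secreted glycoprotein, fell from 162, 156 and 113 CPM to 70.6, 62.4 and 65.0 CPM (adjusted p = 0.0101), and without TGF-β1 replicate 1 its adjusted p was 0.0504 (edgeR). Vldlr, a lipoprotein receptor, fell by 0.91 on the log2 scale (adjusted p = 0.0157, and up to 0.073 without replicate 1 of either group, edgeR). Cebpb, a C/EBP partner of ATF4 named after its value was seen, fell by 0.42 (adjusted p = 0.0484, edgeR), a call kept without TGF-β1 replicate 2 and lost without any other single culture (adjusted p up to 0.16).

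Atf3, a factor that ATF4 induces, measured 23.4, 15.8 and 32.9 CPM in CTL and 17.4, 10.7 and 22.0 CPM in TGF-β1. It fell with the block only (log2 fold change -0.52 ± 0.35, adjusted p = 0.385 without it and 0.000665 with it, edgeR), on the opposite side of zero from Atf4, Trib3 and Ddit4. Sesn1, a relative of Sesn2, and Slc6a9, a glycine carrier, also fell with the block only (log2 fold changes -0.57 ± 0.20 and -0.42 ± 0.14). Gdf15, a secreted stress cytokine named after its values were seen, measured 500.3, 462 and 569 CPM in CTL and 431, 380.3 and 442 CPM in TGF-β1. Its groups did not overlap, and it too fell with the block only (log2 fold change -0.29 ± 0.10, adjusted p = 0.118 and 0.00322, edgeR). The remaining genes of this list that rose, named after their values were seen, were Rhbdd1 and Nupr1. Rhbdd1, an intramembrane protease, had a log2 fold change of 0.29 ± 0.07 (adjusted p = 0.049, edgeR), kept without CTL replicate 3 and lost without any other single culture (adjusted p up to 0.188) or when counts were scaled by library size alone (adjusted p = 0.12, edgeR). Nupr1, a stress-induced chromatin protein, did not pass in edgeR without the block (adjusted p = 0.0923), and rose with it (log2 fold change 0.40 ± 0.12, adjusted p = 0.000562) and in DESeq2 (adjusted p = 0.0307).

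Among other genes of amino acid synthesis and breakdown, 19 of 23 were tested, 1 rose and 4 fell without the block, and 1 rose and 7 fell with it. The shares over all genes were 5.00% higher and 6.69% lower without the block, and 15.1% and 19.1% with it. Prodh, which begins proline breakdown, measured 5.55, 4.89 and 5.65 CPM in CTL and 2.31, 2.23 and 2.52 CPM in TGF-β1 (log2 fold change -1.19 ± 0.13, adjusted p = 0.0061, edgeR). Glul, which makes glutamine, fell by 0.67 on the log2 scale (adjusted p = 0.0131, edgeR). Gclc, the catalytic subunit of the first enzyme of glutathione synthesis, fell by 0.73 (adjusted p = 0.0254, edgeR). Ass1, an enzyme of arginine synthesis, rose from 60.4, 77.3 and 68.4 CPM to 125, 195 and 127 CPM (log2 fold change 1.12 ± 0.20, adjusted p = 0.0228, edgeR). With the block, Oat, which links ornithine to proline, and Bcat2, a branched-chain transaminase, fell as well (log2 fold changes -0.53 ± 0.15 and -0.41 ± 0.10). Prodh passed in every fit that left out a single culture. Leaving out replicate 1 of either group lost the calls of Glul (adjusted p up to 0.0723), Gclc (up to 0.102) and Ass1 (up to 0.105). Ass1 also lost its call without CTL replicate 3, and Gclc without replicate 2 of either group or TGF-β1 replicate 3.

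Of 14 other folate and glycine genes, 0 rose and 2 fell without the block, beside 5.00% and 6.69% of all genes. With the block 3 rose and 4 fell, beside 15.1% and 19.1% of all genes. Mthfd1, the cytosolic counterpart of the mitochondrial one-carbon enzymes, fell by 0.37 on the log2 scale (adjusted p = 0.0199, edgeR) and lost the call without replicate 1 of either group or TGF-β1 replicate 3 (adjusted p up to 0.101). With the block, Sfxn1, the mitochondrial serine carrier, and Amt of the glycine cleavage system fell (log2 fold changes -0.30 ± 0.08 and -0.41 ± 0.14), while Gldc of the same system and the methionine synthase Mtr rose (0.38 ± 0.40 and 0.25 ± 0.09). Without replicate 2 the blocked fit had 1 gene of this list higher and 3 lower, beside 14.3% and 17.0% of all genes. The calls of Gldc, Amt and, named after its value was seen, Tyms were lost (adjusted p = 0.0839, 0.0797 and 0.0769, edgeR).

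Of 13 other amino acid transporters tested, Slc7a7, the light chain of a cationic amino acid exchanger, rose by 0.44 on the log2 scale (adjusted p = 0.0356, edgeR), a call kept without CTL replicate 2 and lost without any other single culture (adjusted p up to 0.128) or with scaling by library size alone (adjusted p = 0.0623, edgeR). Slc1a1, a glutamate carrier, was scarce, at 0.702, 0.729 and 0.585 CPM in CTL and 0.193, 0.164 and 0.089 CPM in TGF-β1, the last of these about the level of 3 reads. It fell by 2.17 on the log2 scale (adjusted p = 0.0128, and up to 0.0707 without replicate 1 of either group, edgeR). With the block, Slc7a2 and Slc38a1 rose and the scarce Slc6a19 fell (log2 fold changes 0.48 ± 0.30, 0.32 ± 0.12 and -0.90 ± 0.26), and Slc6a19 lost this call without replicate 2 (adjusted p = 0.164, edgeR).

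Among 16 endoplasmic reticulum chaperone and unfolded protein response genes the median log2 fold change was 0.03. Ern1, a sensor kinase of that response, was the only one to rise without the block (log2 fold change 0.39 ± 0.07, adjusted p = 0.0185, edgeR), a call kept without TGF-β1 replicate 2 and lost without any other single culture (adjusted p up to 0.0768). With the block, its target Xbp1 and the degradation factor Edem1 rose (0.25 ± 0.09 and 0.29 ± 0.12), and the chaperone subunit Sdf2l1 fell (-0.30 ± 0.11). Over all genes, 5.00% rose without the block, and 15.1% rose and 19.1% fell with it. Without replicate 2 the blocked fit had 5 of the 16 lower instead of 1, beside 17.0% of all genes. They were Sdf2l1 and the chaperones and folding enzymes Hspa5, Hsp90b1, Calr and Pdia6 (adjusted p = 0.0134, 0.0107, 0.0391 and 0.00134 for the last 4, edgeR). These 4, named after their values were seen, were higher with TGF-β1 in the replicate 2 pair and lower in the other pairs.

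Set against the promoter letters, 7 of the 12 members with a TGATGNAA match rose and 0 fell with the block (median log2 fold change 0.22). Of the 19 whose windows held no match, 6 rose and 4 fell (median 0.08), and of the 8 with no window, 4 rose and 2 fell (median 0.14). Atf4, Ddit4, Shmt2 and Slc3a2 were among the members that rose without these letters, and Phgdh, Psat1, Cbs and Slc7a1 were the 4 without them that fell. Over all genes, 15.1% rose and 19.1% fell with the block, and the difference between these sets of members was not tested.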

How the data were processed

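Libraries were prepared from 100 ng of RNA and sequenced as 50-base reads. Per the labels and the submitters' processing notes, reads were trimmed with Trim Galore, aligned to GRCm38 (mm10) with STAR 2.4.1d and counted per gene with HTSeq 0.6.1; the authors deposited raw counts, one table per library, without normalization. Lines that name no gene held reads with no feature (4.16% to 4.93%), ambiguous reads (1.88% to 1.97%) and reads not aligned uniquely (18.7% to 19.4%). These are shares of the total over all lines, those of genes included. The lines that name no gene were kept out of library sizes and tests. Of the 46517 identifiers, 46005 matched GENCODE M21, from which exon lengths were taken. Of the 39 members, 8 share exon bases with another gene, Psph the most (10.4%, with Cct6a), and Ddit3 and Mars overlap each other.

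The groups were compared with edgeR 4.0.16 in R 4.3.3 (filterByExpr, TMM, robust quasi-likelihood F test, two-sided, Benjamini-Hochberg adjustment over all 15862 genes tested, threshold 0.05). The standard error was taken as the absolute log2 fold change divided by the square root of F. The count test replaces the test of normalized counts described by the study, and the procedure was tested on simulated counts. Nothing in the labels states that the 3 cultures per group came from separate animals, so p-values measure only the spread between these samples, part of which may be technical. Whether the replicate numbers pair the cultures was checked from the correlation of their deviations from the group means: same-numbered cultures had correlations of 0.34 to 0.684, other pairs of cultures between the groups -0.617 to 0.215. They were therefore read as pairs, and a fit with the replicate number as a block was run beside the main one. The pairing was least clear for replicate 1 (0.34, against 0.215 for CTL replicate 1 with TGF-β1 replicate 3). It was read from these same data and is not stated in the labels, so the blocked p-values depend on it. No library repeated another (the lowest chi-square per degree of freedom between any 2 was 9.02).

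Alternatives were RLE scaling, library size alone, DESeq2 1.42.0, other filters on low counts, the replicate block, and leaving out single cultures or both cultures of one number. A blocked fit without replicate 2 was added after its Y-linked and epithelial transcripts had been seen. Named genes were all 39 members, the 13 genes of the eIF2α list, and up to 6 genes with the largest absolute change among those past the threshold in either fit from each related list; exceptions are stated where they occur. Some genes of the related lists are counted but not reported here by name. Members and lists were chosen with earlier results of these data known. Promoter windows came from RefSeq (GRCm38.p6). Figures were drawn with matplotlib 3.10.9.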

Additional observations from a re-analysis of the deposited data

How the results depend on the processing

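The counts of 4 higher and 1 lower member became 17 and 6 with the replicate block, 14 and 6 with the block and without replicate 2, 1 and 1 by library size alone and 8 and 1 in DESeq2; leaving cultures out without the block gave 0 to 5 higher and 0 to 2 lower. Over all genes, 793 higher and 1061 lower became 2388 and 3037 with the block, 2288 and 2718 with the block and without replicate 2, 508 and 1467 by library size alone, 1201 and 1521 in DESeq2, and 0 to 1084 higher and 0 to 1290 lower with cultures left out; the count of 0 came from leaving out both replicate 1 cultures. The block added 18 member calls and lost none. RLE scaling and a minimum of 10 counts in every library changed no member's call, and testing without a filter added Gars (adjusted p = 0.047, edgeR). Scaling by library size alone moved the median of all genes to -0.08.

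A change of sign was seen for 4 members, none of which passed in either fit. Ddit3 was at -0.066 by library size alone and between -0.047 and 0.057 with cultures left out. Mthfd2 was at -0.028 by library size alone, at -0.047 with the block and without replicate 2, and between -0.049 and 0.15 with cultures left out. Gpt2 was at 0.027 with the block and without replicate 2 and between -0.13 and 0.094 with cultures left out, and Cth between -0.35 and 0.51. The causes were not tested. Ddit4, Trib3 and Chac1, which passed with the block only, were each counted at over 500 reads in every library, and their cultures overlapped between the groups. What limited their calls without the block was not tested.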
